A study of Homo sapiens with 2 samples.

Results

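Chromosome 8 held 704 of the 26642 peaks in the list deposited for a TCF4 antibody library. The members are every peak listed on this chromosome on the human build hg38. They were divided at a summit position of 45 Mb, beside the centromere, into 73 peaks of the short arm and 631 peaks of the long arm. The DNA came from CAL-27, an established line of human tongue squamous cell carcinoma, grown as floating spheres. The series has 1 library made with the TCF4 antibody and 1 made with control IgG, the latter not analysed here. Per the labels the libraries differ in antibody alone, and no genotype, agent or time point is named. With 1 library, nothing below has a replicate check, and peaks that need the TCF4 antibody were not told apart from peaks that do not.

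TCF4 is the symbol of an E protein, a basic helix-loop-helix factor that binds E-box sites as a dimer. It is also the older name of TCF7L2, which binds DNA with beta-catenin in Wnt signalling, and the antibody's target among these is not named in the labels. In carcinomas, head and neck tumours included, the long arm of chromosome 8 is often gained and distal parts of the short arm are often lost. The copy number of these cells was not measured here.

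Each peak has a fold enrichment, which is the deposited ratio of fragments at its summit over the caller's local background. The whole number of fragments and the background were solved from the fold and the p-value, and the background is given as fragments per 10 kb. The caller's lowest background, called the floor here, is at most 48.4 fragments per 10 kb, and 9.29% of all peaks lay at it. The smallest peaks of the list and of chromosome 8 rest on 5 fragments. A peak was placed at a gene end when its summit was at most 1 kb from the lower or the upper end of a protein-coding record in RefSeq. Strand was not used, so starts and ends of transcription are not told apart. The 95% intervals below are exact Poisson intervals for counts and densities and Wilson intervals for shares, and both cover counting error only.

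The short arm carried few peaks for its length, and the long arm more, although fewer per Mb than the list as a whole. The short arm had 73 peaks (57.2 to 91.8) over a span of 43.5 Mb, or 1.68 peaks per Mb (1.31 to 2.11). The long arm had 631 peaks (582.7 to 682.2) over 98.5 Mb, or 6.41 per Mb (5.92 to 6.93). The long arm was thus 3.82 times as dense (2.99 to 4.94), an interval that lies well above 1. The whole list averaged 8.63 peaks per Mb.

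The gap was wider per gene than per Mb, since the short arm is the richer arm in gene records. It holds 292 protein-coding records, 6.71 per Mb, against 423 and 4.29 per Mb on the long arm. Per 100 protein-coding genes there were 25 peaks on the short arm (19.6 to 31.4) and 149 on the long arm (138 to 161), a ratio of 5.97 (4.68 to 7.71). The whole list had 133 peaks per 100 genes. Counted here are 76 short-arm and 14 long-arm records of families in near-identical copies or named LOC. The ratio was not recomputed without them.

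A peak at an end was found for 40 of the 292 short-arm genes, or 13.7% (10.2 to 18.1), where 41.2% of all 20037 protein-coding genes had one. Of the 423 long-arm genes 171 had one, or 40.4% (35.9 to 45.2), a share near that background. The arms differed by 26.7 percentage points (20.4 to 32.6). When summits inside the gene were counted as well, 62 short-arm genes (21.2%) and 237 long-arm genes (56.0%) had one, beside 54.6% of all protein-coding genes. At a −log10 q of at least 5, the shares were 16 genes (5.48%) on the short arm and 109 genes (25.8%) on the long arm, beside 27.1% of all genes.

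**Figure D1:**
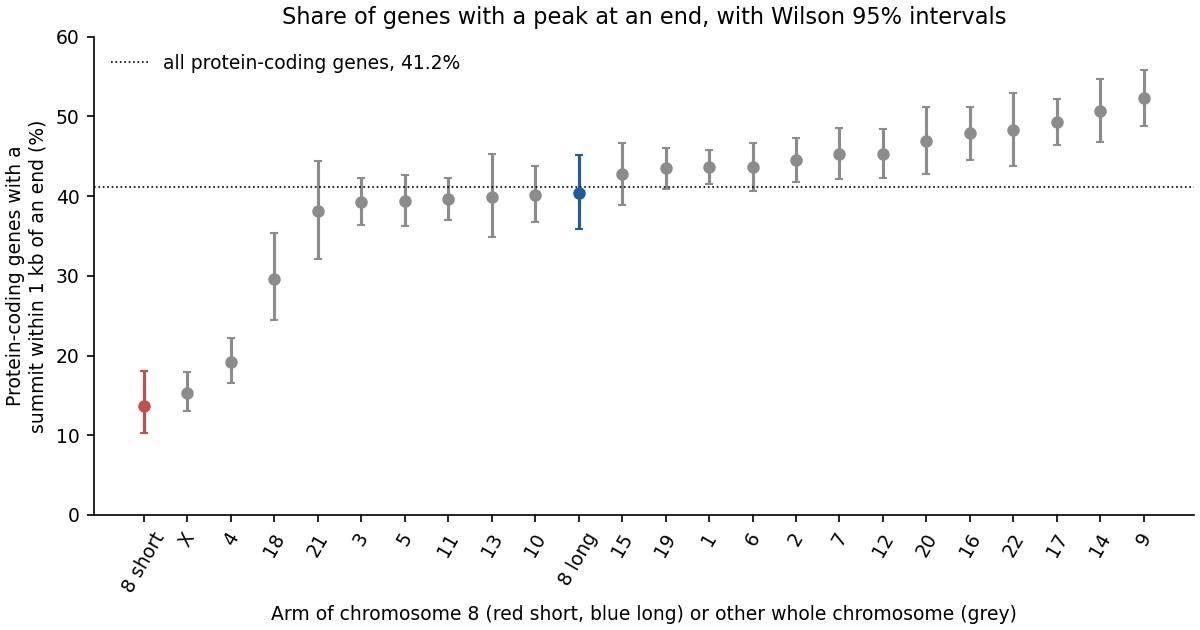
Share of protein-coding genes with a summit within 1 kb of an end (y axis, percent) for the 2 arms of chromosome 8 and for the other chromosomes apart from Y (x axis, in order of the share); bars are Wilson 95% intervals and the dotted line is the share of all genes. The short arm, at 13.7%, sits below every autosome plotted and next to chromosome X at 15.3%, and the long arm, at 40.4%, sits near the dotted line.

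Set beside the 21 other autosomes, the short arm was below all 21 in peaks per Mb, in peaks per 100 genes and in the share of genes with a peak at an end. The lowest autosome on each measure was chromosome 4, with 2.59 peaks per Mb, 64.0 peaks per 100 genes and 19.2% of genes. Chromosome X had 1.57 peaks per Mb, 28.9 per 100 genes and 15.3% of genes, and its Wilson interval for the share (13.1 to 17.9) overlaps that of the short arm. The long arm lay inside the range of the autosomes, with 3 of 21 less dense and 8 of 21 with a lower share of genes. An arm is set against whole chromosomes here, which is not like for like.

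The peaks that the short arm did have lay close to genes. A summit at a protein-coding gene end was found for 32 of 73 short-arm peaks, or 43.8% (33.0 to 55.2), and for 175 of 631 long-arm peaks, or 27.7% (24.4 to 31.4), beside 32.2% of all peaks. The difference of the long arm from the short arm was −16.1 percentage points (−28.0 to −4.72). Its direction changed with the threshold. The difference was +5.95 points above a −log10 q threshold of 5, −8.76 points above a threshold of 10 (7 of 11 short-arm peaks, 63.6%, and 45 of 82 long-arm peaks, 54.9%) and +7.33 points among peaks of at least 20 fragments, of which the short arm has 2.

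Of the other short-arm peaks, 30 (41.1%) lay inside a protein-coding gene away from its ends and 7 (9.59%, 4.72 to 18.5) lay between gene records. For the long arm, 181 peaks (28.7%) lay inside a protein-coding gene and 176 (27.9%, 24.5 to 31.5) lay between records, beside 22.5% of the whole list. The median distance from a summit to the nearest protein-coding gene end was 2542 bp on the short arm and 20473 bp on the long arm. Only 3 short-arm summits (4.11%) were farther than 100 kb from such an end, against 122 long-arm summits (19.3%).

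Peak height differed little between the arms. The median fold enrichment was 5.51 on the short arm (quartiles 4.75 and 7.01, highest 13.97) and 5.23 on the long arm (quartiles 4.46 and 6.30, highest 21.4), and 5.13 over the list. The 95% intervals of the medians, 5.42 to 6.21 and 5.03 to 5.37, do not overlap by a small margin. Peaks of both arms had a median of 8 fragments at the summit, and the median widths were 184 bp and 172 bp. In fragments the arms differed at the upper end: 2 short-arm peaks (2.74%, 0.755 to 9.45) and 75 long-arm peaks (11.9%, 9.59 to 14.6) had at least 20, beside 15.6% of all peaks. In the share of peaks past a −log10 q of 5 the order was the other way, with 35 short-arm peaks (47.9%, 36.9 to 59.2) and 239 long-arm peaks (37.9%, 34.2 to 41.7), beside 41.2% of all peaks. The 5 Mb of the long arm that start at 140 Mb held 25.2% of its peaks, with a median of 14 fragments. The rest of the arm had a median of 8. The share with at least 20 fragments was not computed without that bin.

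The local background moved with the arm as well. Its median was 57.5 fragments per 10 kb around short-arm peaks (48.4 to 64.5) and 73.0 around long-arm peaks (69.5 to 79.0), against 98.0 over the list. Of the short-arm peaks, 28 (38.4%, 28.1 to 49.8) lay at the floor, against 107 of the long-arm peaks (17.0%, 14.2 to 20.1). No short-arm background exceeded 199 fragments per 10 kb, while the highest on the long arm was 1895. The median of the short arm was below, and its share at the floor above, those of all 21 other autosomes, whose nearest values were 66.0 on chromosome 13 and 22.7% on chromosome 4. Fold is a ratio over this background, so the closeness of the 2 median folds and the difference in background were read from the same fragments. The part of the lower background in the number of short-arm peaks was not tested.

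The background at gene ends showed the same order more widely. Peaks at short-arm gene ends had a median of 51.5 fragments per 10 kb and a median fold of 5.42. Peaks at long-arm gene ends had 92.5 fragments per 10 kb and a median fold of 5.79. Away from gene ends the medians were 58.0 fragments per 10 kb with a fold of 6.10 on the short arm and 68.0 with a fold of 4.91 on the long arm. On the long arm, as in the whole list, gene-end peaks had the higher median fold. On the short arm the medians had the other order, but folds of 5.42 and 6.10 are those of 7 and 8 fragments at the floor. The median was 8 fragments both for its 32 gene-end peaks and for its 41 other peaks. No interval was made for these medians, so a difference in height between the short-arm classes was not shown. The highest short-arm fold, 13.97, was at a gene end.

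**Figure D2:**
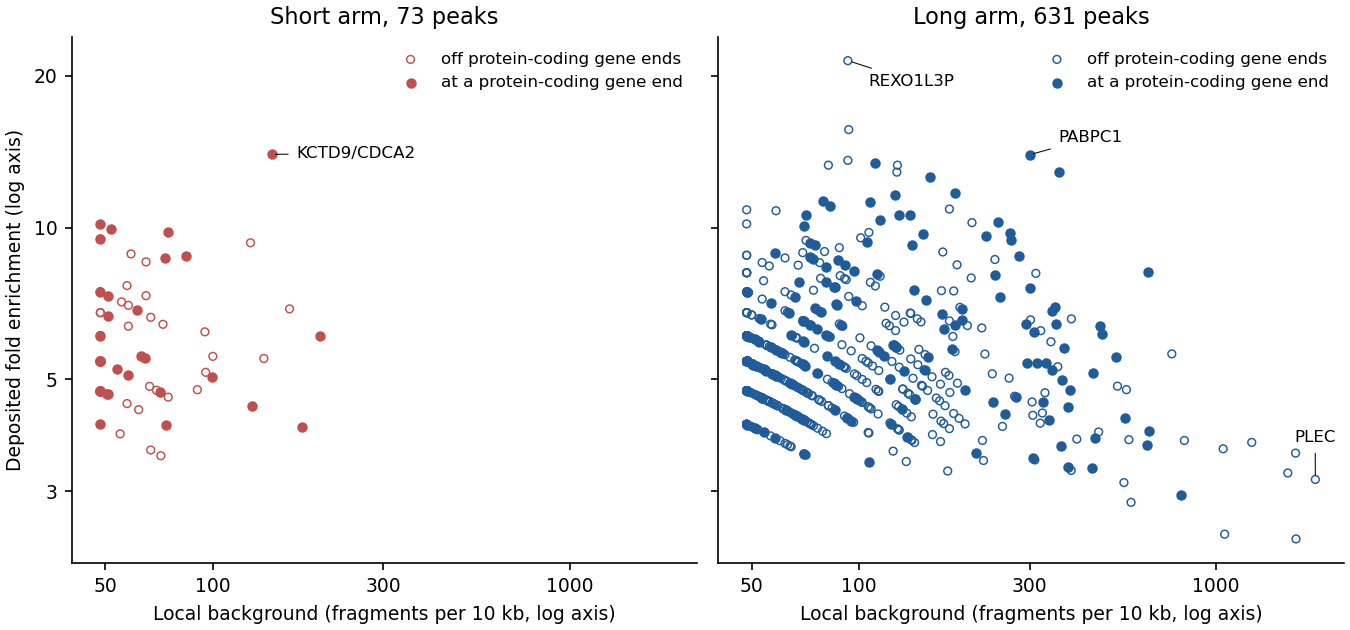
Deposited fold enrichment (y axis, log scale) against the local background in fragments per 10 kb (x axis, log scale) for the 73 short-arm peaks (left) and the 631 long-arm peaks (right); filled points are summits at a protein-coding gene end and open points all others. Short-arm points end at 199 fragments per 10 kb, the long arm reaches 1895 in PLEC, and the slanting lines at the lower left are peaks that share a whole number of fragments.

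Along the short arm most peaks lay outside its distal 20 Mb, though unevenly. The 5 Mb bins of the short arm held 1 to 21 summits, with a median of 6 over 9 bins. Those that start at 20, 25 and 40 Mb held 21, 13 and 11 summits. Those that start at 30 and 35 Mb held 2 and 4, fewer than the 9 of the bin at the tip of the arm. The distal 20 Mb had 22 peaks over 136 genes, and 6 of these genes (4.41%, 2.04 to 9.29) had a peak at an end. The next stretch, from 20 Mb to the centromere, had 51 peaks over 156 genes, and 34 genes (21.8%, 16.04 to 28.9) had one. The distal part holds most of the gene families in near-identical copies, defensins and FAM90A genes among them, whose reads cannot be placed with certainty. The set left out next, called the copy families below, was taken by the start of the symbol. It holds all defensins and also every record named LOC, whether or not in copies. Without this set, 5 of 62 distal genes (8.06%, 3.49 to 17.5) and 34 of 154 proximal genes (22.1%, 16.3 to 29.3) had a peak. Over the whole arm, 39 of 216 genes outside the copy families (18.1%, 13.5 to 23.7) had a peak at an end. This was still below the 41.6% of the long arm (170 of 409 genes, 36.9 to 46.4). These blocks were chosen after the values were seen.

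The long arm was uneven too. Its 21 bins held 2 to 159 summits, with a median of 24, where bins of other chromosomes had a median of 31. The 5 Mb bin that starts at 140 Mb held 159 peaks, 25.2% of the arm, over 104 genes, of which 51 (49.0%, 39.6 to 58.5) had a peak at an end. Its peaks had a median of 14 fragments and a background of 185.5 fragments per 10 kb. The bin that starts at 100 Mb held 79 peaks over 28 genes, and 17 of these (60.7%, 42.4 to 76.4) had a peak at an end, although 21.5% of its summits lay at gene ends. Without the bin that starts at 140 Mb, the long arm kept 472 peaks and a gene share of 37.6% (32.5 to 43.1). Its density was then 3.01 times that of the short arm (2.35 to 3.91). Its median background was 1.11 times that of the short arm (0.946 to 1.38), an interval that includes 1.

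**Figure D3:**
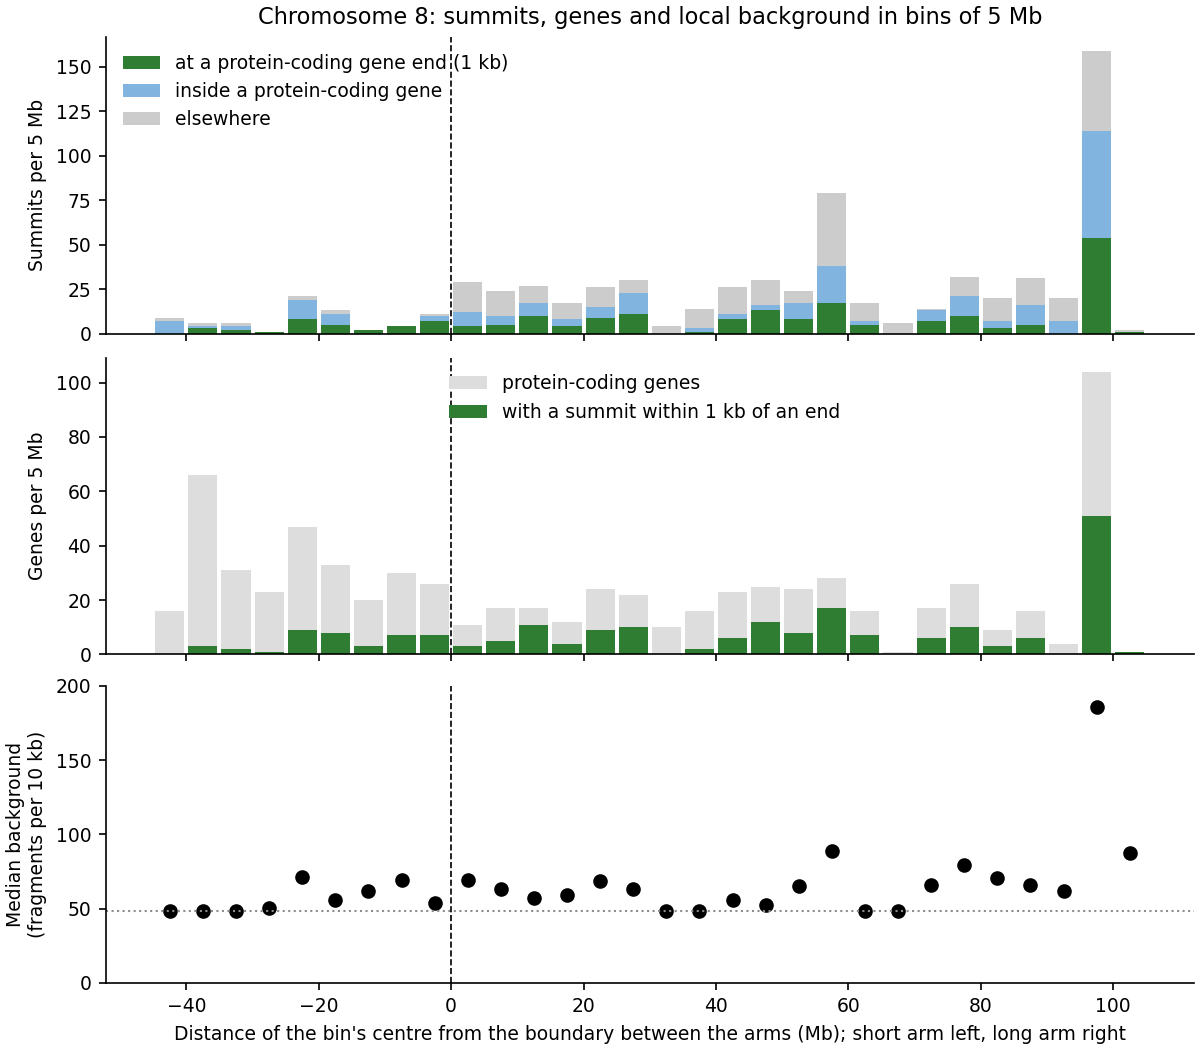
Summits per 5 Mb by position class (top), protein-coding genes and those with a summit within 1 kb of an end (middle) and median local background in fragments per 10 kb (bottom), against the distance in Mb of each bin's centre from the boundary between the arms (dashed line, short arm to the left). Short-arm bins reach 21 summits and the tallest long-arm bin 159; the dotted line in the bottom panel is the lowest bin median, at the background floor.

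The longest stretches without a summit lay on the short arm and contain large genes. No summit lay between chr8:12821855 and chr8:19817686, a stretch of 6.996 Mb with 25 protein-coding genes. Among these are DLC1 as well as TUSC3, a subunit of the oligosaccharyltransferase, MSR1, a scavenger receptor of macrophages, and PCM1, a protein of centriolar satellites. The next was 6.76 Mb long, from chr8:31033811 to chr8:37797554, with 12 genes that include NRG1, a ligand of ERBB receptors, UNC5D, a netrin receptor, and ERLIN2, a protein of endoplasmic reticulum membranes. The third, of 4.82 Mb from chr8:1825425 to chr8:6649264, spans CSMD1, a large complement-control protein, and its upper bound is the summit at the end of MCPH1. On the long arm the 3 longest were 2.29 Mb around TRPS1, a GATA-type repressor, 2.21 Mb with PKIA, ZC2HC1A and IL7, and 1.90 Mb around CSMD3, a relative of CSMD1.

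Summits on the short arm were widely spaced, with a median of 161 kb against 54.0 kb on the long arm. Neighbours were taken as 1 run up to a fixed gap, and the widest gap so joined was 12.47 kb. By this rule 63 short-arm summits (86.3%) and 372 long-arm summits (59.0%) had no neighbour. The largest short-arm run had 4 summits over 31.3 kb at NUDT18, HR, HRURF and REEP4, with folds of 4.01 to 6.90. HR is a corepressor needed for the hair cycle, and the run is the only one of 3 or more summits on the arm.

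The long arm had 32 runs of 3 or more summits and 5 of 6 or more. The first of these, with 7 summits over 19.8 kb from chr8:85642439 to chr8:85662258, lies among REXO1L pseudogenes, which exist in near-identical copies, so its fragments cannot be assigned to 1 copy. PLEC, which encodes the cytoskeletal linker plectin, held a run of 7 summits over 27.6 kb with folds of 2.41 to 3.75. Its peaks had a median of 49 fragments, and the background there was 1046 to 1895 fragments per 10 kb, far above the floor. AGO2, the slicer Argonaute of RNA silencing, held 7 summits over 37.5 kb with folds of 4.10 to 7.49 and a background of 81.5 to 170 fragments per 10 kb. DENND3, an exchange factor for a Rab GTPase, held a run of 6. A further run of 6 lay at YWHAZ, a 14-3-3 adaptor, with 3 summits inside the gene and 3 between gene records.

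The strongest gene-end peak of the short arm lay between KCTD9 and CDCA2. KCTD9 is a BTB-domain protein, and CDCA2 targets protein phosphatase 1 to chromosomes at the end of mitosis. The peak spans chr8:25458379-25458891, its fold was 13.97, and it rests on 33 fragments (22.7 to 46.3) over a background of 146 per 10 kb. Its summit lay 14 bp from the higher end of KCTD9 and 484 bp from the lower end of CDCA2. No other gene-end peak of this arm had 20 fragments.

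The next peaks rest on 13 to 16 fragments each, and their intervals overlap. The peak at FAM90A24 (chr8:8020011-8020276) had a fold of 10.2 on 14 fragments, and this gene belongs to a family in near-identical copies, so its placement is uncertain. INTS9, a subunit of the Integrator complex, and HMBOX1, a telomere-binding homeobox protein, share the peak at chr8:28890085-28890304, with a fold of 9.93 on 14 fragments. SARAF, a regulator of store-operated calcium entry, had a fold of 9.79 on 16 fragments at chr8:30082985-30083276. These 3 peaks lay at backgrounds of 48.4, 52.0 and 75 fragments per 10 kb, the first of them the floor.

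ATP6V1B2, a subunit of the vacuolar proton pump, had a fold of 9.49 on 13 fragments at chr8:20197096-20197408. POLR3D, a subunit of RNA polymerase III, had a fold of 8.77 on 15 fragments at chr8:22244981-22245348. ADAM9, a membrane metalloprotease, and TM2D2 share the peak at chr8:38996500-38996907, with a fold of 8.71 on 14 fragments. Sharing was common: the 40 short-arm genes with a peak are served by 31 distinct peaks, and 9 of these lie at the ends of 2 genes each, so 18 genes count for 9 peaks.

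Away from gene ends, the strongest short-arm peaks were of similar height. A peak of 523 bp at chr8:95719-96241, the widest of the arm, lies inside the non-coding record LOC101927506 near the end of the chromosome, with a fold of 9.49 on 13 fragments. IKBKB, the kinase that releases NF-kappaB, held a peak 520 bp wide at chr8:42290052-42290571, 19189 bp from its nearest end, with a fold of 9.33 on 20 fragments (12.2 to 30.9). A separate peak at the end of IKBKB had a fold of 5.23 on 7 fragments. The counting intervals of these peaks, from 7 to 20 fragments, overlap.

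The peak at chr8:20140774-20141060 lies 4022 bp from SLC18A1, a vesicular amine transporter, with a fold of 8.87 on 13 fragments. EXTL3, a heparan sulfate glycosyltransferase, held an internal peak at chr8:28622351-28622817 with a fold of 8.55 on 13 fragments. The peak at chr8:23074718-23074955 lies within TNFRSF10B-AS1, 5876 bp from TNFRSF10B, with a fold of 7.67 on 11 fragments. DLGAP2, a scaffold protein of the postsynaptic density, held 6 internal summits with folds of 4.47 to 6.78 and none at its ends. PLAT, HR and LOXL2 followed with 2 each, and all other short-arm genes had at most 1.

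Peaks at long-arm gene ends reached similar folds on more fragments. PABPC1, the cytoplasmic poly(A)-binding protein, had the highest fold of this class, 13.9 on 54 fragments (40.6 to 70.5) at chr8:100722098-100722761. SQLE, squalene epoxidase of cholesterol synthesis, had a fold of 13.4 on 27 fragments (17.8 to 39.3) at chr8:124998081-124998550. RRM2B, a p53-induced subunit of ribonucleotide reductase, had a fold of 12.9 on 58 fragments (44.0 to 74.98) at chr8:102238718-102239721, where the peak is 1004 bp wide. PABPC1 and RRM2B lay at backgrounds of 300 and 364 fragments per 10 kb, above any of the short arm.

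MCM4, a subunit of the replicative helicase, and PRKDC, the catalytic subunit of DNA-dependent protein kinase, share a peak at chr8:47960738-47960983 with a fold of 12.6 on 31 fragments. CHRAC1, a histone-fold subunit of a chromatin remodelling complex, had a fold of 11.7 on 32 fragments at chr8:140511270-140512112. TMEM65, a membrane protein of mitochondria, had a fold of 11.6 on 25 fragments at chr8:124372407-124373039.

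CSPP1, a centrosome and cilium protein, had a fold of 11.3 on 19 fragments at chr8:67064251-67064412. ATAD2, a bromodomain ATPase, and NTAQ1, an amidase acting on N-terminal glutamine, share the peak at chr8:123416404-123416783, with a fold of 11.2 on 22 fragments. The fragment interval of each of these long-arm peaks overlaps that of the KCTD9 and CDCA2 peak. In all, 149 distinct peaks served the 171 long-arm genes, and 22 peaks were shared by 44 of them.

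**Figure D4:**
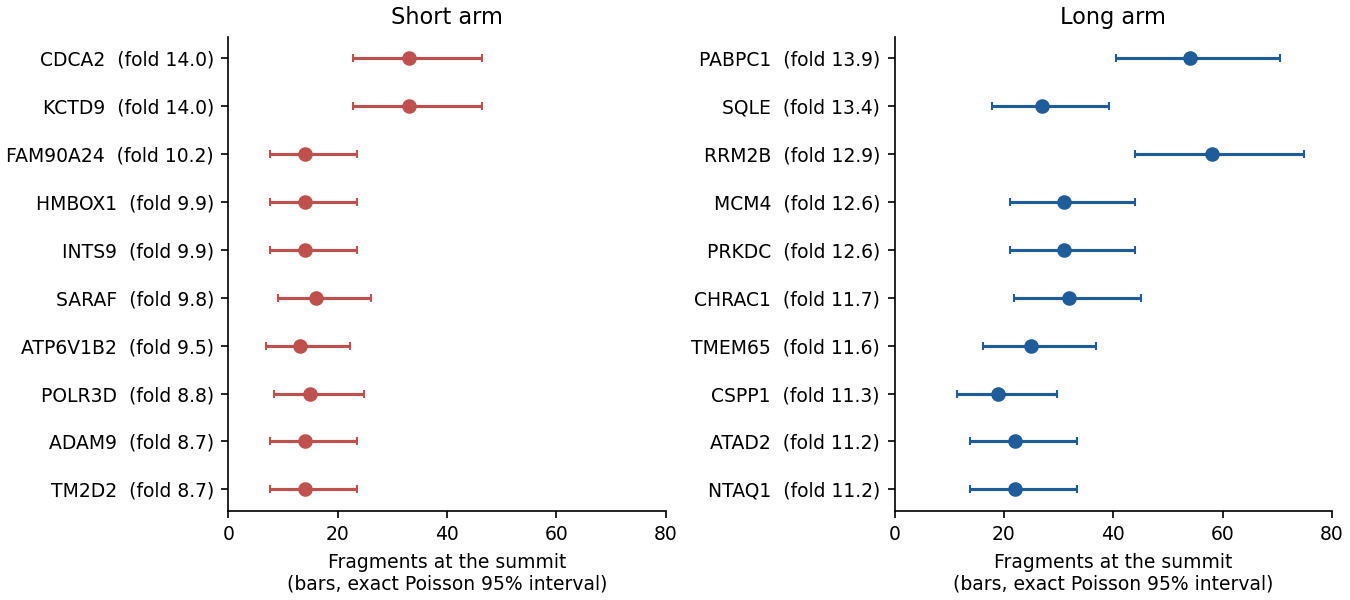
Fragments at the summit (x axis) of the gene-end peak for the 10 genes of each arm with the highest deposited fold, given in brackets (y axis, in order of fold); bars are exact Poisson 95% intervals, and genes that share a peak show the same point. On the short arm only the peak shared by CDCA2 and KCTD9, at 33 fragments, stands above 16, while the long-arm peaks run from 19 to 58.

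The 2 highest folds of the whole chromosome lay at pseudogenes, away from protein-coding gene ends. The peak at chr8:85655668-85655916, beside REXO1L3P, had a fold of 21.4 on 40 fragments, and peaks of REXO1L1P at chr8:85661103-85661340 and chr8:85661474-85661674 had folds of 15.6 and 13.6 on 29 and 25 fragments. These lie among the REXO1L copies named above. A peak between records at chr8:144125756-144126033, 7529 bp from WDR97, had a fold of 13.3 on 23 fragments. STK3, a kinase of the Hippo pathway, held an internal peak at chr8:98825904-98826220 with a fold of 13.3 on 29 fragments.

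PLEC held most internal summits of any long-arm gene, 9 with folds of 2.41 to 4.77, followed by AGO2 with 8 and DENND3 with 6. YWHAZ, EXT1, LYN and IQANK1 held 5 each. EXT1 polymerises heparan sulfate and LYN is a SRC-family kinase. The widest long-arm peak, 1111 bp at chr8:144901027-144902137, lies at the end of ZNF250, a zinc-finger protein, with a fold of 7.504 on 17 fragments. The third widest after RRM2B was 878 bp at the non-coding record GASAL1, with a fold of 6.56 on 25 fragments.

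Each gene list below is set beside the share of all genes of its arm with a peak at an end, which is 13.7% on the short arm (18.1% outside the copy families) and 40.4% on the long arm. At a −log10 q of at least 5, 16 of the 40 short-arm genes and 109 of the 171 long-arm genes with a peak kept one. Those are 5.48% and 25.8% of all genes of the arms. Most lists are short and their intervals wide, and a share whose interval includes that of the arm is not a result about the list.

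Among genes of DNA replication, repair and mitosis, 12 of 17 on the long arm (70.6%, 46.9 to 86.7) had a peak at an end and 4 of 10 on the short arm (40%, 16.8 to 68.7), against 40.4% and 13.7% of all genes of the same arms. The short-arm interval includes the 18.1% outside the copy families. At a −log10 q of at least 5 the list kept 8 of its 16 genes with a peak, of 27 in all. Of all protein-coding genes 27.1% had one at that threshold, with 25.8% on the long arm and 5.48% on the short arm. No interval of the list was made there, so it was not shown to lie above its arm at that threshold. The short-arm members were CDCA2 with a fold of 13.97, MCPH1, a regulator of mitotic entry, and PINX1, a telomerase inhibitor, with 5.42 each on 7 fragments, and WRN, the helicase of Werner syndrome, with 4.75 on 6. RRM2B, PRKDC and MCM4 led the long-arm members, and PRKDC and MCM4 are both counted by the same peak. DSCC1, needed for sister chromatid cohesion, and the short-arm genes ESCO2 and GINS4 had no peak at an end.

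In translation, 6 of 12 long-arm genes (50%, 25.4 to 74.6) had a peak and the single short-arm gene, EIF4EBP1, a repressor of cap-dependent initiation, had none. The interval includes the 40.4% of the long arm. PABPC1 led with 13.9, followed by the ribosomal protein gene RPL7 with 8.10 on 16 fragments, BOP1, a factor of large-subunit assembly, with 6.94 on 30, and RPS20 with 6.54 on 10. The initiation factor genes EIF3E and EIF3H had none at an end.

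The list of RNA polymerase, splicing and RNA decay had a peak at 4 of 6 short-arm genes (66.7%, 30.0 to 90.3) and 5 of 12 long-arm genes (41.7%, 19.3 to 68.0). Of all genes of the arms, 13.7% and 40.4% had one. The long-arm interval includes the share of its arm. The short-arm interval lies above 13.7% but rests on 6 genes. The short-arm genes were INTS9, POLR3D, LSM1, a subunit of a decapping complex, with 4.75 on 6 fragments, and INTS10, of Integrator, with 4.68 on 6. Among long-arm genes ZNF706 had a fold of 10.6 on 24 fragments, PUF60, a splicing factor, 9.63 on 30, ESRP1, the epithelial splicing regulator, 7.17 on 17, ZC3H3 6.39 on 17 and INTS8 5.13 on 7. AGO2, BRF2 and CNOT7 had none at an end. AGO2 thus carried 8 summits within its body and none at either end.

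Mitochondrial and proton-pump genes had a peak at 2 of 3 on the short arm (66.7%, 20.8 to 93.9) and 6 of 12 on the long arm (50%, 25.4 to 74.6), beside 13.7% and 40.4% of all genes there. The long-arm interval includes 40.4%. The short-arm interval lies above 13.7% but rests on 3 genes. At a −log10 q of at least 5 the list's count fell from 8 to 4, of 15 genes. Of all genes, 5.48% on the short arm and 25.8% on the long arm had a peak at that threshold. The short-arm members were ATP6V1B2 and VDAC3, a channel of the outer mitochondrial membrane, with 4.75 on 6 fragments. The long arm was led by CHCHD7 with 11.02 on 19 fragments and SLC25A32, a mitochondrial folate carrier, with 9.22 on 15, and COX6C, a subunit of cytochrome oxidase, had none.

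The folds of Wnt pathway genes ran from 4.07 to 5.94, and none of their 7 peaks reached a −log10 q of 5. Of all genes, 5.48% on the short arm and 25.8% on the long arm had a peak at an end at that threshold. Both arms' shares, 2 of 5 (40%, 11.8 to 76.9) and 5 of 10 (50%, 23.7 to 76.3), have intervals that include those of all genes, 13.7% and 40.4%. On the short arm the members with a peak at an end were DKK4, a secreted Wnt inhibitor, with 4.75 on 6 fragments in a peak shared with VDAC3, and FZD3, a Wnt receptor, with 4.07 on 5. Those of the long arm were CTHRC1, a secreted Wnt cofactor, with 5.94 on 8, the receptor FZD6 with 5.42 on 7, PTK2, focal adhesion kinase, with 5.19 on 11, the endoderm factor SOX17 with 5.01 on 10 and LRP12 with 4.22 on 6. The median fold was 4.41 for the 2 short-arm members and 5.19 for the 5 long-arm members. Over all genes of these arms with a peak at an end, each at its highest fold, it was 5.47 and 6.10. CCN4, a secreted matricellular protein, and RSPO2, a ligand that raises Wnt signalling, had none.

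MYC, the growth-promoting transcription factor, had no summit at its ends or inside it. The nearest peak of the list, at chr8:127668723-127669035, was 66582 bp away at the non-coding record LOC105375754, with a fold of 8.42 on 13 fragments. PVT1, the long non-coding gene beside MYC, held 4 internal summits with folds of 6.04, 4.997, 8.96 and 5.41, on 11, 9, 15 and 8 fragments.

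Of genes on the short arm often lost in carcinoma, 5 of 24 (20.8%, 9.24 to 40.5) had a peak at an end, an interval that includes the 13.7% of the arm. None of the 5 reached a −log10 q of 5, where 5.48% of all short-arm genes had a peak at an end. BNIP3L, a mitophagy receptor, had a fold of 5.42 on 7 fragments, XPO7, a nuclear exporter, 5.098 on 7, and DOK2, a docking protein, 4.71 on 7. RHOBTB2 and TNFRSF10B, a TRAIL death receptor, share a peak with a fold of 5.06 on 9. ARHGEF10, CLU and CSMD1 had none at an end, and CSMD1, among the longest genes of the arm, had none inside either.

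Genes of the proximal short arm often gained in carcinoma had a peak at 10 of 24 (41.7%, 24.5 to 61.2), beside the 13.7% of the arm and the 41.2% of all genes. The interval lies above the share of the arm. At a −log10 q of at least 5 the count fell to 5 of the 24, beside 5.48% of all short-arm genes. TM2D2 and ADAM9 led with their shared peak of 8.71, then KAT6A, a histone acetyltransferase, with 7.46 on 10 fragments, and HGSNAT, a lysosomal acetyltransferase, with 7.33 on 10. ASH2L, a subunit of histone methyltransferase complexes, DDHD2 and ERLIN2 had none. FGFR1, a receptor tyrosine kinase amplified in some squamous carcinomas and named here after its value was seen, had none at an end. These 24 genes lie within the proximal block, where 21.8% of all genes had a peak.

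Of 31 long-arm genes often gained in carcinoma, 17 (54.8%, 37.8 to 70.8) had a peak at an end. SQLE and CHRAC1 led, with TRIB1, a pseudokinase, at 9.75 on 34 fragments and TRAPPC9, of a vesicle-tethering complex, at 9.23 on 21. AGO2, ASAP1, an ARF GTPase-activating protein, and COPS5, a subunit of the COP9 signalosome, had none at an end. The interval includes the 40.4% of all long-arm genes, and 11 of the 17 reached a −log10 q of 5. Of all long-arm genes with a peak at an end, 109 of 171 reached it.

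Transcription and chromatin factors had a peak at 2 of 7 on the short arm (28.6%, 8.22 to 64.1), KAT6A and NSD3, a histone methyltransferase with 5.51 on 8 fragments. Of 21 long-arm factors 10 (47.6%, 28.3 to 67.6) had one, and both intervals include the shares of the arms. Of these 12 genes, 5 reached a −log10 q of 5. Among all genes with a peak at an end, 16 of 40 on the short arm and 109 of 171 on the long arm did. The long-arm factors were led by the homeobox repressor ZHX1 at 9.69 on 23 fragments and HSF1, the heat shock factor, at 6.94 on 30 in a peak shared with BOP1. BHLHE22, CHD7 and ASH2L had none at an end.

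Genes listed for epithelium and squamous tissue had a peak at 4 of 16 on the long arm (25%, 10.2 to 49.5), and the interval includes the 40.4% of the arm. ESRP1 had 7.17, the pore-forming GSDMD 5.38 on 21 fragments, the surface antigen PSCA 4.60 on 16 and GRHL2, a regulator of epithelial identity, 4.58 on 8. CLDN23, a claudin of tight junctions and the single short-arm member, had 6.66 on 9 fragments. CA2, EPPK1 and FABP5 had none at an end. Peaks do not measure expression, so the identity of the cells was not checked from them.

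Sterol and lipid enzymes had a peak at 1 of 7 short-arm genes (14.3%, 2.57 to 51.3), GPAT4 at 6.10 on 8 fragments, and 2 of 10 long-arm genes (20%, 5.67 to 51.0), SQLE and DGAT1 at 5.53 on 33. Vesicle and lysosome genes had one at 2 of 8 short-arm genes (25%, 7.15 to 59.1), SARAF and HGSNAT, and 3 of 11 long-arm genes (27.3%, 9.75 to 56.6). All 4 intervals include the shares of all genes of the arms, 13.7% and 40.4%. The long-arm vesicle genes were TRAPPC9, RAB2A at 7.28 on 11 and VPS28 at 6.45 on 28. AGPAT5, ASAH1 and CYP11B1 in the first list, and ARFGEF1, CHMP4C and CHMP7 in the second, had none at an end.

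The lists of neuron genes, of blood, immune and endothelial genes and of defensins could not be told apart from their arms at this size. Each interval includes the 13.7% or the 40.4% of all genes there. Of the neuron genes none of 10 on the short arm had one at an end, which allows a share of up to 27.8%, and 1 of 9 on the long arm (11.1%, 1.99 to 43.5) did, PENK, which encodes enkephalins, at 4.17 on 6 fragments. ADCY8, ADRA1A and CHRNA2 had none at an end. Of blood, immune and endothelial genes none of 8 on the short arm had one, which allows up to 32.4%, and 2 of 8 on the long arm (25%, 7.15 to 59.1) did, SOX17 and TOX at 3.999 on 5 fragments. None of the 15 defensin genes had one, which allows up to 20.4%, and most of these lie in copies whose reads cannot be placed with certainty.

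**Figure D5:**
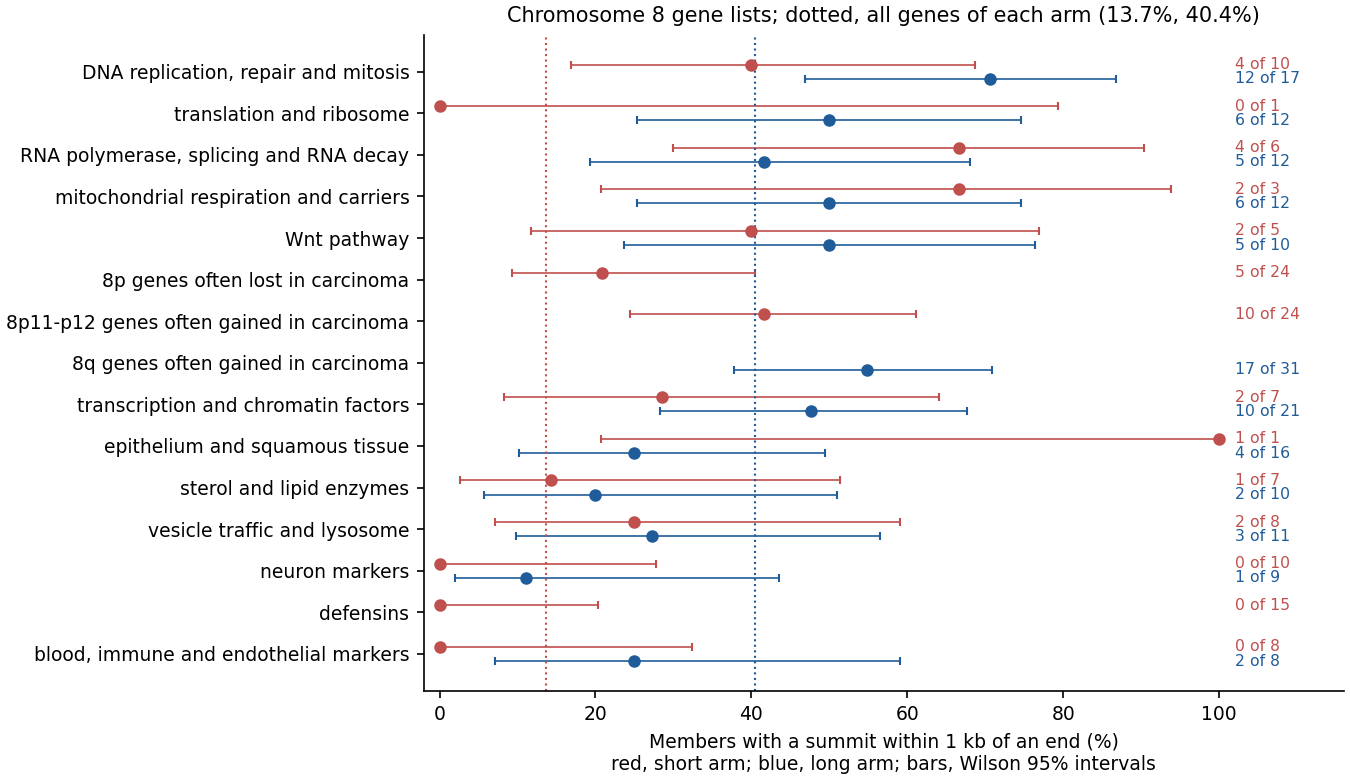
Share of list members with a summit within 1 kb of an end (x axis, percent) for the 15 gene lists (y axis), red for the short arm and blue for the long arm, with counts at the right; bars are Wilson 95% intervals and the dotted lines are the shares of all genes of the same arm, 13.7% (red) and 40.4% (blue). With all deposited peaks, DNA replication, repair and mitosis on the long arm, at 12 of 17, lies above the blue line with its whole interval. The intervals of the other long-arm lists cross it. On the short arm several intervals lie above the red line, on few genes each. These are DNA replication (4 of 10), RNA polymerase (4 of 6), mitochondrial genes (2 of 3) and epithelium (1 of 1). The genes of the proximal short arm often gained (10 of 24) also lie above it. The lists were chosen with results known, and no difference was tested.

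Over all lists, 30 of 120 short-arm genes (25%, 18.1 to 33.4) and 64 of 150 long-arm genes (42.7%, 35.0 to 50.7) had a peak at an end. Beside these stand 13.7% of all short-arm genes, 18.1% of those outside the copy families, and 40.4% of all long-arm genes. The lists were chosen with results known, and the difference was not tested.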

How the data were processed

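Antibody-bound DNA was recovered and libraries were amplified with barcoded primers, per the labels' protocols. Bowtie2 2.3.5.1, SAMtools and MACS2 2.2.7.1 on hg38 are named per the submitters' processing notes; settings, total depth and use of IgG as the caller's control are not given in the sources used here. The deposited list gives a fold enrichment (a ratio), −log10 p-values and −log10 q-values, a score and a summit offset per peak, as the authors' caller wrote them. The deposited q-value was used as a threshold, to filter peaks and to count those past it. The deposited score entered no value given here.

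Fragments and background were solved from fold = (fragments + 1) / (background + 1) and a Poisson tail. The solution met the −log10 p of each of the 26642 peaks to within 0.0001; backgrounds rise in steps of 0.00491, the worth of 1 fragment end over 10 kb for fragments of 98.1 bp. On simulated data 477 of 477 peaks and 400 of 400 summits planted at gene ends were recovered. The simulation used the same formulas and the same 1 kb window as the analysis. It therefore checks the computation alone, and not whether the formulas or the window suit these data.

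Genes came from the RefSeq table of the assembly that hg38 names (59679 records, 20037 protein-coding), which was used without strand or exons. Promoter sequence features of this chromosome were planned and are not used here. Of 271 distinct list genes, 270 matched a protein-coding record, and PVT1 is non-coding. The members and lists were chosen with earlier results of these data known. With 1 library no test was made; intervals are exact Poisson, Wilson, Newcombe (differences of shares) or from binomial order statistics (medians).

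Named genes are the 10 with the highest fold at an end per arm, the 5 strongest peaks off gene ends, the 5 genes with most internal summits, the 3 widest peaks, 3 densest runs and 3 longest empty stretches per arm, members of short counts, and from each list the top 4 by fold and 3 that lack a peak, by alphabet. Alternatives were stricter thresholds, other windows, arm boundaries, spans and gene sets. Scripts ran in Python 3.11.15. Values came from pandas 2.3.3, SciPy 1.17.1 and NumPy 2.4.6, and figures from Matplotlib 3.10.9.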

Additional observations from a re-analysis of the deposited data

How the results depend on the processing

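Of 46 recomputed values of the comparisons between the arms, 34 moved by less than their counting interval, 10 moved by more and 2 reversed. With a −log10 q of at least 5, the summit share at gene ends was 5.95 points higher on the long arm, the background ratio rose from 1.27 to 1.69 and the gene share difference fell to 20.3 points. With at least 10, these last values were 2.15 and 9.58, and the share at gene ends kept its direction at −8.76 points (63.6% on the short arm, 54.9% on the long arm). The interval of the background ratio included 1 at this threshold (0.839 to 4.26), off gene ends and without the bin that starts at 140 Mb. With at least 20 fragments, which leaves 2 short-arm peaks, the share at gene ends was 7.33 points higher on the long arm, the density ratio 16.6, the fold ratio 0.565, the background ratio 2.2998 and the gene share difference 9.95 points. Density per 100 genes, copy families included, gave a ratio of 5.97, and counting all gene records gave a gene share difference of 12.7 points. A stricter threshold leaves fewer peaks by construction; the cause of the reversals was not tested. The density ratio stayed between 3.01 and 4.08 under all other settings tried. Leaving out the copy families and the 5 Mb bin that starts at 140 Mb were chosen after seeing the data. Of 90 recomputed list counts, 52 stayed within 1.5 times the main count and 38 did not. Peaks rest on few fragments, and no depth of the library is known. No paired analysis was possible because each antibody has 1 library, of which the TCF4 library alone was used.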
